A study of Mus musculus with 10 samples.

Results

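Interferon response and antigen presentation genes are described here in heart muscle cells sorted from infarcted mouse hearts. The set was given by name as 34 gene symbols (type I and type II interferon response genes and MHC class I genes), and all 34 were found among the 56832 rows of the count table. The symbols were listed by function with no cut-off on a measured value, though earlier results of these data were known when the list was drawn up. Each of 5 Sprr1a-GFP mice, whose library titles carry the tag Hetz, underwent myocardial infarction at 12 weeks of age, and cardiomyocytes were freed by Langendorff digestion 5 days later. Flow cytometry then separated GFP+ cells (labelled border zone cardiomyocytes) from GFP− cells (labelled remote zone cardiomyocytes). Both groups therefore share the reporter genotype, the infarction and the time, and no uninjured heart was compared. Sprr1a-GFP is a reporter named for Sprr1a, a small proline-rich protein made under stress, so GFP marks cells by that gene and the zone is the labels' reading of it. The titles of the GFP+ libraries name DAPI-negative and DAPI-positive sorts together (DAPI is a dye that enters cells with leaky membranes), while the GFP− titles name DAPI-negative sorts alone. That difference in gate cannot be told apart from the GFP difference. By identifier, mice 17C1 and 17C2 belong to one series (17C) and mice 21A4, 21A5, 21A7 to another (21A). Titles are worded differently in each, and the labels do not say what the series are. Values below are listed in that order of mice, and each mouse gave 1 library of each kind.

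Interferons are secreted signals that cells release when they sense foreign or misplaced nucleic acid or when lymphocytes are activated. Binding to their receptors activates JAK kinases, STAT factors and interferon regulatory factors, which enter the nucleus and switch on interferon-stimulated genes through DNA elements called ISRE (the interferon-stimulated response element) and GAS (the gamma-activated sequence). The products block viral replication, recruit immune cells and raise MHC class I, the surface complex that shows peptides from inside the cell to CD8 T cells. Heart muscle cells normally carry little MHC class I, and after infarction the dying tissue and the macrophages that enter it are known sources of interferon signalling.

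The DNA just before the transcription start was read for the 25 of 34 members present in a RefSeq promoter table (build GRCm38.p6, which is an earlier build than the GRCm39 the counts were made on). A core of the ISRE (GAAANNGAAA, either strand) lay within the 250 bases before a start in 11 of the 25 members (44.0%), against 936 of all 27025 genes in that table (3.46%). A core of the GAS element (TTCNNNGAA, which reads the same on both strands in its fixed letters) lay there in 5 of 25 (20%), against 8.13% of all genes. The windows of 4 members are shown because 3 of them hold the ISRE core among the members whose GFP difference differed between the mouse series, and because B2m rose in the 17C mice. Each is written 5′ to 3′ on the gene's own strand and ends at the base before the start, and capitals mark the ISRE core on either strand.
Cxcl10: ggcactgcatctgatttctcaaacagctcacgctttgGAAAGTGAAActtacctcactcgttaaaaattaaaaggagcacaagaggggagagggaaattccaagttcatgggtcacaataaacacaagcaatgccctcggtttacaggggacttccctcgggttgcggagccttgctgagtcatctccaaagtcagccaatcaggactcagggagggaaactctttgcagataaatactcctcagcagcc
Ifit3: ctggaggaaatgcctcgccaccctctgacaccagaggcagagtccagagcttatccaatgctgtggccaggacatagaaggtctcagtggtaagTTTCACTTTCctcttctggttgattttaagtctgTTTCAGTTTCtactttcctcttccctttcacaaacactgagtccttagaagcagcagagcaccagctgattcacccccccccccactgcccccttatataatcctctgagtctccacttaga
Bst2: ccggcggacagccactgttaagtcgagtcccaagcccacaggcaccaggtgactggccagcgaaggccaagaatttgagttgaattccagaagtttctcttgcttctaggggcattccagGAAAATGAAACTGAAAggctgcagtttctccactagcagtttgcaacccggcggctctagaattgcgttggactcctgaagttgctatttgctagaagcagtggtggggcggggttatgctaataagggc
B2m: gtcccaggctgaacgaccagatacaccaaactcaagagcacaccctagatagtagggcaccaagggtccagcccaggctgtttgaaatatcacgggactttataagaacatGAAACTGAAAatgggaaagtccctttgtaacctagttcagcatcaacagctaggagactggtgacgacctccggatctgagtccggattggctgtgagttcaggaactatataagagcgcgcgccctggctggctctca

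The Cxcl10 window is chr5:92348890-92349139 on the minus strand, with its core at positions −213 to −204 from the start. Ifit3 is chr19:34583279-34583528 on the plus strand and holds 2 cores on the opposite strand, at −156 to −147 and −122 to −113. Bst2 is chr8:71537473-71537722 on the minus strand, with 2 overlapping cores from −130 to −115. B2m is chr2:122147437-122147686 on the plus strand, with 1 core at −139 to −130. Oasl2, H2-K1 and H2-D1 were in the table without a match, which says only that these letters are not in that window. Ifi27l2a was not matched in the table.

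Total counts per library ran from 12244373 to 38879965, and the share from mitochondrial genes from 9.20% (21A7 GFP−) to 91.2% (21A7 GFP+). Scaling by TMM (trimmed mean of M values) used factors from 0.241 to 3.31, so levels are given as CPM (counts scaled to a common library total). They are not divided by gene length and compare 1 gene across libraries, not genes with each other. Sprr1a, the reporter's gene, stood at 0.191 to 8.98 CPM in GFP− and 158 to 317 CPM in GFP+ libraries and was higher in GFP+ in 5 of 5 mice. All 12 cardiomyocyte markers had counts in all 10 libraries, summing to between 4479 and 56010 CPM. Of the 8 lymphocyte markers 5 to 8 were at 0 in each library, and their sum never passed 0.534 CPM. Markers of macrophages, fibroblasts, endothelial cells and other cell types were present, and their levels are given beside the member sums. In such bulk libraries, fewer cells of a type and less RNA per cell cannot be told apart.

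Across all 5 mice no interferon or class I gene passed the test between GFP+ and GFP− cells, and their fold changes lay on both sides of 0. Of the 33 members with enough counts to test (all but Mx2), 0 passed an adjusted p of 0.05 in the fit paired by mouse (edgeR quasi-likelihood test, Benjamini-Hochberg over all 12115 tested genes), where 0.858% of all tested genes did. The count at an unadjusted p under 0.05 was 2, both lower in GFP+ (Parp14 and Rsad2), while 15.3% of all tested genes were under it. DESeq2 called 1 member and limma voom 1, Parp14 in both, where they called 886 and 1163 of all tested genes. The fitted log2 fold changes of GFP+ over GFP− ran from −1.38 to 1.03, 18 above 0 and 15 below, with a median of 0.11 against −0.04 over all tested genes. Without the pairing, 0 of 33 members and 10 of all 12115 tested genes passed. At an unadjusted p under 0.05 there were 0 members, against 8.18% of all tested genes.

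That even balance was made of mice that differed from each other. Among the 33 tested members, 23 were higher in GFP+ in mouse 17C1 and 25 in 17C2, but 9 in 21A4, 3 in 21A5 and 15 in 21A7. The median log2 ratio of GFP+ to GFP− (from log2 CPM with a prior count of 2) was 0.85 and 1.03 in the 17C mice, and −0.48, −0.92 and −0.04 in the 21A mice. Over all tested genes the same medians lay between −0.02 and 0, with 48.4% to 49.8% of genes higher in GFP+. No member was higher in GFP+ in 5 of 5 mice, and 2 (6.06% of members) were lower in 5 of 5, as were 8.02% of all tested genes. Of the 33, 9 were higher in both 17C mice and lower in all 3 21A mice (27.3%), a pattern that 7.08% of all tested genes showed, and 0 members showed the opposite pattern, against 7.68% of all tested genes. The map of levels by library shows the GFP− libraries of the 17C mice as the poorest in these transcripts and both libraries of 21A7 as the richest. These levels rest on the TMM factors, which for 21A7 were the most extreme (3.31 in GFP−, 0.241 in GFP+).

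**Figure D1:**
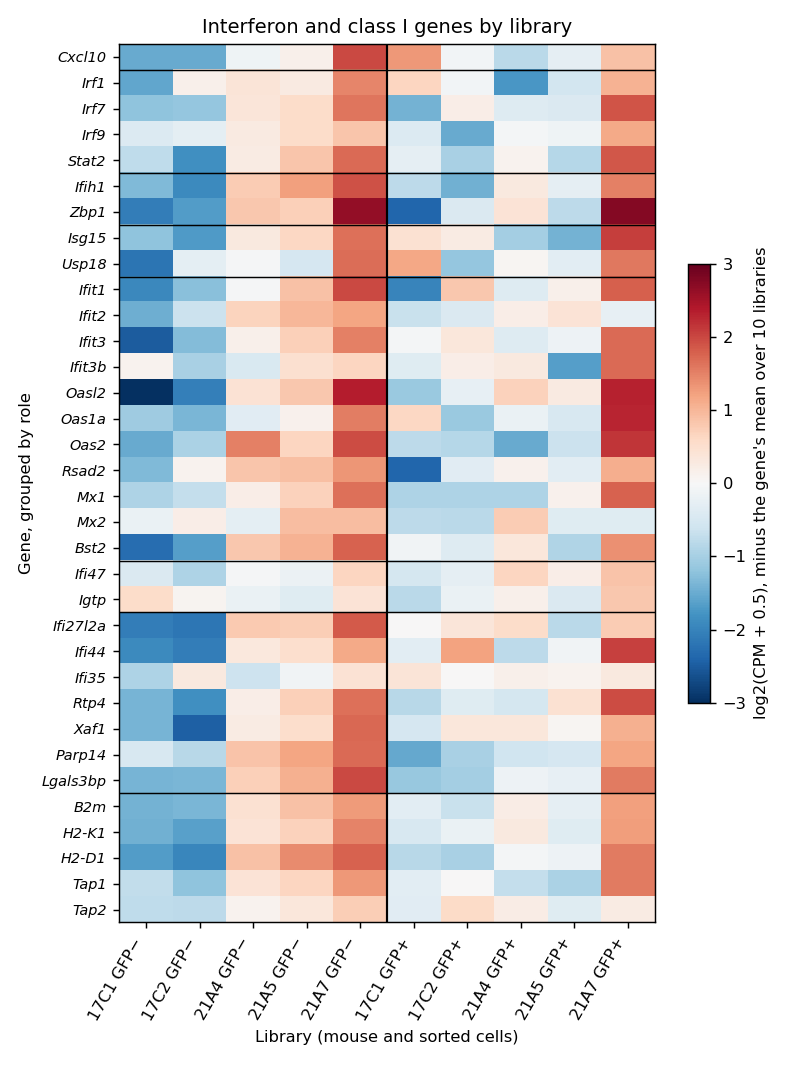
Colour gives log2(CPM + 0.5) of each of the 34 members minus that gene's mean over the 10 libraries (red above, blue below, limits −3 and 3), with genes in rows by role and libraries in columns, GFP− to the left of the vertical line. The columns 17C1 GFP− and 17C2 GFP− are mostly blue, and those of 21A7 mostly red on both sides of the line.

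The ligand Cxcl10, a chemokine that draws T cells carrying CXCR3, was scarce. Its counts were 0 in the GFP− libraries of both 17C mice, and 28 and 9 in their GFP+ libraries (3.04 and 0.857 CPM). Pooled over both 17C mice, Cxcl10 in GFP+ was 18.4-fold a floor of 3 counts over the GFP− group. This bound allows no error in the GFP+ counts, most of which came from 17C1. Taken singly, 3 counts would be 0.179 CPM in GFP− of 17C1 and 0.236 CPM in GFP− of 17C2. The 21A mice went the other way, with 0.821, 1.08 and 5.15 CPM in GFP− and 0.317, 0.689 and 2.13 CPM in GFP+. All 3 were lower in GFP+, and the GFP− library of 21A7 stood highest of all 10. Within the 17C mice the rise did not pass the edgeR test (adjusted p = 0.087), and within the 21A mice the log2 fold change was −1.06 ± 0.66 (SE, n = 3; edgeR adjusted p = 0.368). The difference between the series passed (edgeR adjusted p = 0.0327), with a fitted size that depends on how the zeros are treated.

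Of the transcription factors, Irf7, which amplifies the interferon loop, and Irf9, the DNA-binding part of the complex on ISRE elements, had the highest counts. Irf7 stood at 5.38 and 5.51 CPM in GFP− of the 17C mice and at 4.57 and 15.1 CPM in GFP+, so the pair of mice disagreed. Among the 21A mice it stood at 16.8, 19.2 and 40.5 CPM in GFP− and 9.91, 9.55 and 49.6 CPM in GFP+. The GFP+ library of 21A7 was the highest of the 10, and its level was over 3 times that of any other GFP+ library. The paired fit over 5 mice gave Irf7 a log2 fold change of −0.07 ± 0.36 (SE; edgeR adjusted p = 0.946).

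Irf9 read 5.68 and 6.14 CPM in GFP− of the 17C mice against 5.65 and 2.38 CPM in GFP+. The 21A values were 9.29, 11.5 and 14.0 CPM in GFP− against 7.30, 7.03 and 17.6 CPM in GFP+. It was lower in GFP+ in 4 of 5 mice, and its log2 fold change was −0.40 ± 0.30 (SE; edgeR adjusted p = 0.585). Irf1, the factor most directly raised by interferon gamma, and Stat2, the partner of IRF9, gave −0.39 ± 0.65 and −0.05 ± 0.43. All 4 factors lay below 0 over the 5 mice, none past the threshold.

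The cytosolic sensors were scarce in the 17C mice. Ifih1, which encodes the double-stranded RNA sensor MDA5, stood at 1.2 and 0.630 CPM in GFP− of 17C and at 1.96 and 1.05 CPM in GFP+. The 21A mice had it at 6.62, 9.45 and 15.3 CPM in GFP− and 4.68, 3.03 and 11.6 CPM in GFP+. Every 17C library lay below every 21A library. Zbp1, a sensor of Z-form nucleic acid that can trigger necroptosis, read 0.120 and 0.315 CPM in GFP− of 17C and 0 and 1.43 CPM in GFP+. Its 21A levels were 4.06, 3.78 and 15.6 CPM in GFP− and 2.93, 1.01 and 16.9 CPM in GFP+. Both libraries of 21A7 stood far above the other 8. Over 5 mice the log2 fold changes were −0.30 ± 0.42 for Ifih1 and −0.29 ± 0.62 for Zbp1 (SE; edgeR adjusted p = 0.792 and 0.870).

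Isg15, a ubiquitin-like protein attached to others after interferon, went from 1.2 and 0.709 CPM in GFP− to 4.89 and 4.19 CPM in GFP+ in the 17C mice. From GFP− to GFP+ of the 21A mice it went from 4.29, 5.55 and 11.8 CPM to 1.43, 0.964 and 16.1 CPM. Isg15 was higher in GFP+ in both 17C mice and 21A7, and lower in 21A4 and 21A5. Its series difference did not pass (−3.46 ± 0.96, SE; edgeR adjusted p = 0.0562). Usp18, the protease that removes ISG15 and restrains the type I receptor, read 0.120 and 1.81 CPM in GFP− of 17C against 5.87 and 0.762 CPM in GFP+. The 21A values were 2.29, 1.5 and 8.60 CPM against 2.46, 1.79 and 8.0 CPM. Usp18 followed no common direction, and the 17C value rests on mouse 17C1. Over 5 mice Isg15 gave 0.17 ± 0.81 and Usp18 0.50 ± 0.84 (log2, SE; edgeR adjusted p = 0.944 and 0.831).

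The antiviral effectors, the role with the most members, included 3 whose GFP difference differed between the series. Oasl2, of the oligoadenylate synthetase-like family, stood at 0.419 and 1.97 CPM in GFP− of the 17C mice and 4.24 and 8.19 CPM in GFP+. It stood at 13.4, 17.5 and 51.4 CPM in GFP− of the 21A mice and 15.9, 11.8 and 50.2 CPM in GFP+. The 17C GFP− libraries were the lowest of all, the 17C GFP+ libraries came next, and the 21A libraries overlapped between the groups. Oasl2 rose in the 17C mice (log2 fold change 2.64 ± 0.85, SE, n = 2; edgeR adjusted p = 0.0419) and read −0.10 ± 0.23 in the 21A mice (n = 3; edgeR adjusted p = 0.847). The difference of 21A minus 17C was −2.67 ± 0.49 (SE; edgeR adjusted p = 0.0236).

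Ifit2, which binds viral RNA and slows its translation, and Rsad2, which makes a chain terminator of viral RNA synthesis (viperin), were named with it. Ifit2 read 1.97 and 3.86 CPM in GFP− of 17C against 3.81 and 4.57 CPM in GFP+, and 10.3, 13.2 and 15.0 CPM in GFP− of 21A against 7.30, 8.63 and 5.23 CPM in GFP+. It was higher in both 17C mice and lower in all 3 21A mice, with −0.32 ± 0.38 over the 5 (log2, SE; edgeR adjusted p = 0.751). Rsad2 was lower in GFP+ in 5 of 5 mice, from 1.44, 4.72, 8.19, 8.56 and 11.7 CPM in GFP− to 0.435, 3.33, 4.84, 3.40 and 9.82 CPM in GFP+. The libraries of the groups overlapped across mice, though not within any mouse, and the paired change of −0.85 ± 0.33 (log2, SE) did not pass (edgeR adjusted p = 0.271).

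Ifit3 and Bst2, named after their values were seen because their series difference passed, showed the same split as Oasl2. Ifit3, an adaptor of the IFIT complex, read 0.479 and 1.73 CPM in GFP− of 17C against 4.78 and 6.48 CPM in GFP+. In the 21A mice it read 5.71, 8.56 and 15.3 CPM against 3.73, 4.5 and 17.6 CPM. Bst2, the tetherin that holds budding virus at the cell surface, read 0.419 and 0.945 CPM in GFP− of 17C against 3.70 and 2.95 CPM in GFP+. Its 21A levels were 7.35, 8.83 and 14.9 CPM in GFP− and 5.23, 1.93 and 11.1 CPM in GFP+. Both genes were higher in GFP+ in both 17C mice, and Bst2 was lower in all 3 21A mice. The series difference was −2.97 ± 0.68 for Ifit3 and −3.36 ± 0.83 for Bst2 (log2, SE; edgeR adjusted p = 0.0346 and 0.0409). Within the 17C mice alone neither passed (edgeR adjusted p = 0.064 and 0.263).

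Ifit3 shares 99.1% of its 1209 coding bases with Ifit3b (aligned in the GENCODE M21 annotation), so reads of the pair may have been divided between them or dropped. Ifit3b read 0.551 to 10.1 CPM and did not share the pattern, with a series difference of −0.51 ± 1.34. The other effectors (Ifit1, Oas1a, Oas2, Mx1 and Mx2) were at or under 13.8 CPM in every library. Mx1 had 0 counts in 3 of the 4 17C libraries, and Mx2, the member that was not tested over the 5 mice, never passed 1.5 CPM. Mx1 and Mx2 shared 71.1% of aligned coding bases.

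The interferon-gamma GTPases Igtp and Ifi47, of a family that acts on vacuoles that hold microbes, did not show the split of Oasl2. Igtp stood at 9.87, 7.09, 5.67, 5.02 and 9.02 CPM in GFP− and 3.59, 5.71, 7.45, 4.82 and 12.0 CPM in GFP+. Its groups overlapped, and the 17C GFP− libraries were not low for it. Igtp was lower in GFP+ in both 17C mice, and its series difference of 1.12 ± 0.58 (log2, SE) did not pass (edgeR adjusted p = 0.257). Ifi47 stood at 0.957, 0.551, 1.43, 1.26 and 2.62 CPM in GFP− and 0.870, 1.14, 2.62, 1.79 and 3.09 CPM in GFP+, higher in 4 of 5 mice. The paired log2 fold changes were −0.18 ± 0.34 and 0.50 ± 0.52 (SE; edgeR adjusted p = 0.851 and 0.707).

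Parp14, an ADP-ribosyl transferase of interferon and IL-4 signalling, came closest to a shared change. It stood at 7.18, 5.51, 18.7, 23.7 and 34.0 CPM in GFP− and at 3.15, 4.95, 6.50, 7.07 and 23.7 CPM in GFP+. Parp14 was lower in GFP+ in 5 of 5 mice, by least in 17C2. The paired change of −1.04 ± 0.29 (log2, SE) did not pass with edgeR (adjusted p = 0.154), though Parp14 is the member that DESeq2 and limma voom called. Within the 21A mice it fell (−1.24 ± 0.29, SE, n = 3; edgeR adjusted p = 0.0345), and within the 17C mice it read −0.65 ± 0.64 (n = 2; edgeR adjusted p = 0.603). Its series difference of −0.60 ± 0.53 did not pass (edgeR adjusted p = 0.530).

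Lgals3bp, a secreted glycoprotein raised by interferon, stood at 10.7 and 10.9 CPM in GFP− of 17C and 12.9 and 14.0 CPM in GFP+. For the 21A mice it was at 47.8, 61.2 and 117 CPM in GFP− and 26.1, 24.3 and 87.0 CPM in GFP+. All 4 17C libraries lay below all 6 21A libraries, and all 3 21A mice were lower in GFP+. Over 5 mice the log2 fold change was −0.41 ± 0.29 (SE; edgeR adjusted p = 0.567), and within 21A −0.86 ± 0.24 (edgeR adjusted p = 0.0672).

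Ifi27l2a, an interferon-induced mitochondrial protein named after its values were seen, had the largest series difference among the members that passed, Cxcl10 aside. It read 0.538 and 0.472 CPM in GFP− of 17C against 3.91 and 5.14 CPM in GFP+. The 21A values were 7.08, 6.81 and 15.1 CPM in GFP− against 5.95, 2.02 and 6.94 CPM in GFP+. Higher in both 17C mice and lower in all 3 21A mice, it differed between the series by −4.16 ± 0.75 (log2, SE; edgeR adjusted p = 0.0234). Within 17C it gave 3.13 ± 1.11 (edgeR adjusted p = 0.0662) and within 21A −1.01 ± 0.37 (edgeR adjusted p = 0.130). Ifi44, Rtp4 and Xaf1 had series differences of −4.32 ± 1.17, −1.81 ± 0.86 and −3.48 ± 1.36, and Ifi35 of −0.25 ± 0.74, none past the threshold in edgeR, while DESeq2 called Ifi44 and Xaf1.

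Of all members, the MHC class I genes B2m, H2-K1 and H2-D1 had the most counts. B2m, the light chain shared by all class I molecules, stood at 27.9 and 28.9 CPM in GFP− of the 17C mice and 60.4 and 47.2 CPM in GFP+. In the 21A mice it stood at 104, 139 and 183 CPM in GFP− and 88.2, 62.8 and 177 CPM in GFP+. The 17C GFP− libraries were the lowest of the 10, and within each 21A mouse GFP+ was the lower library. B2m rose in the 17C mice (log2 fold change 0.92 ± 0.27, SE, n = 2; edgeR adjusted p = 0.0266) and read −0.45 ± 0.28 in the 21A mice (n = 3; edgeR adjusted p = 0.367). Over 5 mice it gave 0.08 ± 0.34 (edgeR adjusted p = 0.937).

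The classical heavy chains H2-K1 and H2-D1, which hold the peptide, split by series in the same way. H2-K1 stood at 23.7 and 20.5 CPM in GFP− of 17C and 46.0 and 56.1 CPM in GFP+, and at 86.7, 105 and 182 CPM in GFP− of 21A and 79.7, 50.2 and 155 CPM in GFP+. H2-D1 stood at 22.0 and 17.9 CPM in GFP− of 17C and 39.6 and 36.0 CPM in GFP+, and at 131, 189 and 242 CPM in GFP− of 21A and 68.4, 63.7 and 211 CPM in GFP+. For both genes the 17C GFP+ libraries exceeded the 17C GFP− libraries without overlap, and every 21A mouse had less in GFP+. In the 17C mice H2-K1 rose by 1.21 ± 0.28 and H2-D1 by 0.94 ± 0.30 (log2, SE; edgeR adjusted p = 0.00542 and 0.0385). The 21A values were −0.45 ± 0.26 and −0.88 ± 0.30 (edgeR adjusted p = 0.338 and 0.113). The series differences of −1.67 ± 0.39 and −1.83 ± 0.43 passed (edgeR adjusted p = 0.0367 and 0.0371). The pair shares 88.3% of aligned coding bases, so a share of their reads could have been assigned to either gene, and other class I genes resemble them.

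Tap1 and Tap2, the transporter that carries peptides into the endoplasmic reticulum, read 2.60 to 20.6 CPM and 2.60 to 8.32 CPM over the 10 libraries. Neither passed in the edgeR fits of the 5 mice, of either series or of the series difference. Tap1 read 0.92 ± 0.69 in 17C and −0.87 ± 0.39 in 21A, and Tap2 1.01 ± 0.75 and −0.37 ± 0.36 (log2, SE). All 5 class I members were therefore above 0 in the 17C mice and below 0 in the 21A mice, and 3 of them passed with edgeR in the 17C mice. In the 21A mice edgeR called 0, while DESeq2 and limma voom called H2-D1 lower. Other scalings moved all genes as well. Scaled by library size alone, the median of the 5 was 1.09 in the 17C mice, where that of all genes was 0.14, and −2.49 in the 21A mice, where that of all genes was −2.08. Scaled to the cardiomyocyte markers, it was 2.36 against 1.40, and −1.19 against −0.79. Over 5 mice H2-K1 gave 0.19 ± 0.37 and H2-D1 −0.17 ± 0.41 (edgeR adjusted p = 0.858 and 0.884).

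**Figure D2:**
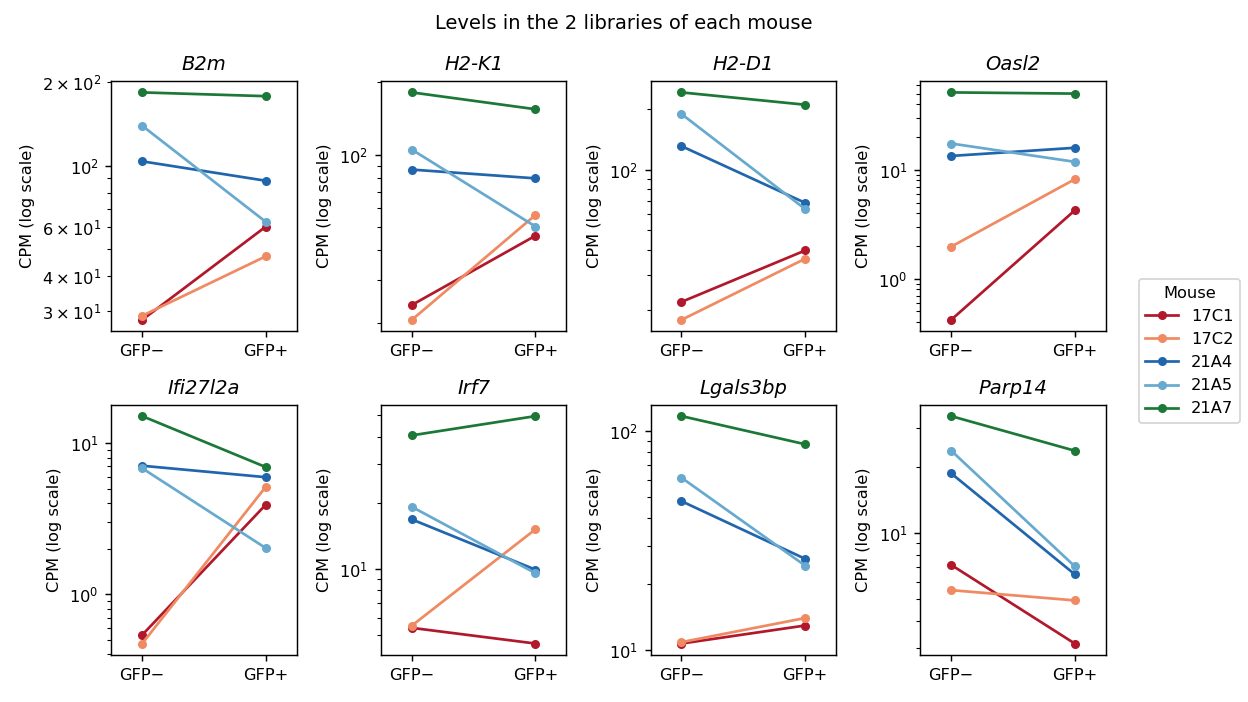
Each panel shows 1 gene, with its CPM on a log axis of its own in the GFP− and GFP+ library of each mouse, joined by a line (5 mice, 1 library each). For B2m, H2-K1 and H2-D1 the lines of 17C1 and 17C2 rise and those of the 3 21A mice fall, while for Parp14 all 5 fall.

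By series, most members stood higher in GFP+ cells of the 17C mice and lower in GFP+ cells of the 21A mice. Of the 28 members with enough counts in the 17C mice, 24 lay above 0 and 4 (B2m, H2-K1, H2-D1 and Oasl2) were called higher, where 6.08% of all tested genes were. Their median log2 fold change was 0.98 against −0.01 over all tested genes, and it was 0.98 also with Cxcl10 at its bound. None was called lower with edgeR, DESeq2 or limma voom (0 at an unadjusted p under 0.05 in edgeR), where 7.52% of all tested genes were. With 2 mice, this fit leaves each gene 1 residual degree of freedom and relies on the spread shared across genes, and the part each mouse plays cannot be checked by leaving it out. DESeq2 called 3 members (Ifi44, Cxcl10 and H2-K1) and limma voom 3 (B2m, H2-K1 and H2-D1), so H2-K1 was called by all 3 tools. Of all 11107 tested genes, DESeq2 called 1247 and limma voom 1607.

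In the 21A mice all 34 members were tested, 29 lay below 0, and 1 (Parp14) was called lower, where 4.05% of all tested genes were. The median was −0.51 against −0.06 over all tested genes. None was called higher by edgeR, DESeq2 or limma voom (0 at an unadjusted p under 0.05 in edgeR), where 2.67% of all tested genes were. The count moved with single mice, as did calls over all genes. Without 21A7, 9 members were called lower (Isg15, Oas2, Irf7, Bst2, Irf1, Lgals3bp, Parp14, Tap1 and H2-D1) and 2150 of all 13507 tested genes were called in either direction. Without 21A4 or without 21A5 0 members were, and 57 and 238 of all genes. The median without 21A7 was −0.88.

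The difference between the series was tested as a term of the fit over all 10 libraries. It passed for 7 of 33 members (Ifi27l2a, Oasl2, Cxcl10, Ifit3, H2-K1, H2-D1 and Bst2), all more positive in the 17C mice, where 7.62% of all tested genes passed in either direction. Of the 33, 28 had a negative difference of 21A minus 17C, with a median of −1.67 against 0.01 over all tested genes, or −1.70 with Cxcl10 at its bound and Mx1, which was under the floor in both 17C groups, left out. DESeq2 called 12 members, and 1925 of all tested genes. These counts moved with single mice together with the calls over all genes. Without 17C1 0 members and 0 of all genes were called, without 21A5 0 members and 1 gene, and without 21A4 2 members (Oasl2 and Ifi27l2a) and 349 genes. Without 17C2 7 members and 1035 genes were called, and without 21A7 6 members and 587 genes. Without the pairing 0 members and 0 of all genes passed. The plot of one series against the other shows where each member lies.

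**Figure D3:**
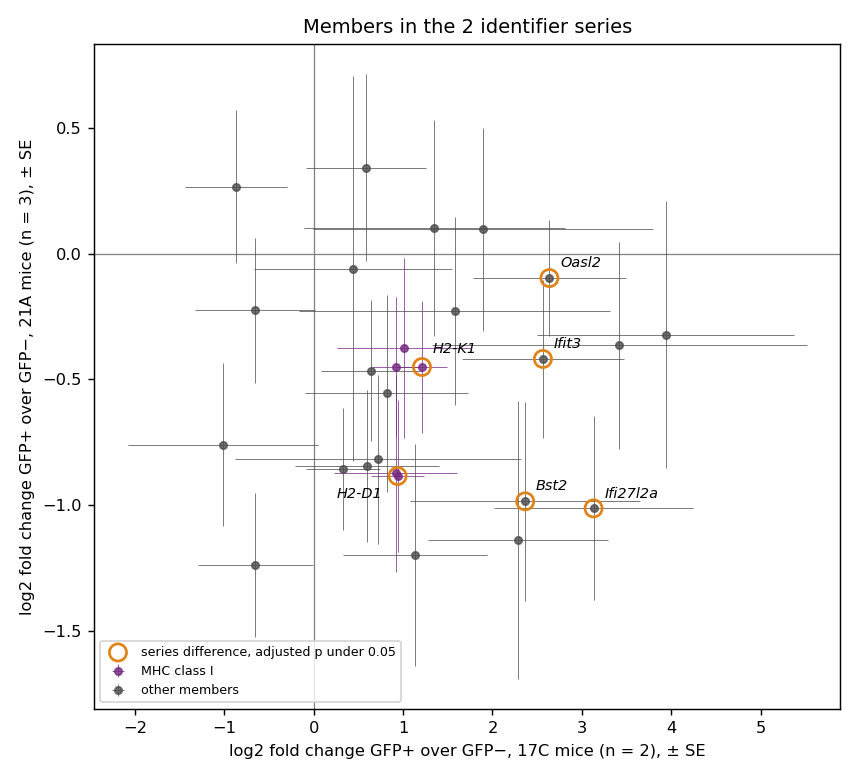
Points are members tested in both series (Cxcl10 left out, since its 17C GFP− counts are 0), with the log2 fold change of GFP+ over GFP− in the 17C mice on the horizontal axis and in the 21A mice on the vertical axis, and bars of 1 SE. Most points lie to the right of 0 and below 0, and rings mark members whose series difference passed.

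The summed level of the members was also read library by library. All 34 together summed to 141 and 143 CPM in GFP− of the 17C mice and 253 and 269 CPM in GFP+. Sums in the 21A mice came to 541, 706 and 1128 CPM in GFP− and 388, 304 and 1028 CPM in GFP+. Over all 5 mice the GFP+ sums ran from 253 to 1028 CPM and the GFP− sums from 141 to 1128 CPM. Only with 21A7 left out, a choice made after its values were seen, was the GFP+ range the narrower. The 4 GFP+ libraries then lay between 253 and 388 CPM, and the 4 GFP− libraries between 141 and 706 CPM. Class I members made 80.0 and 72.5 CPM of the 17C GFP− sums, 155 and 153 CPM of the 17C GFP+ sums, and 183 to 632 CPM in the 21A libraries. Member counts were uneven too, as 13 of 34 members had fewer than 10 counts in each 17C GFP− library and 0 did in the 21A GFP− libraries. Total counts did not split that way, at 24366792 and 17401677 in the 17C GFP− libraries and 26304375, 20123333 and 16870349 in those of 21A. Their mitochondrial share did, at 61.9% and 58.1% in the 17C GFP− libraries and 35.7%, 26.5% and 9.20% in those of 21A. Fewer counts were therefore left for all other genes in the 17C GFP− libraries. The part of this in the low member counts was not tested.

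Summed fibroblast markers were higher or lower in GFP+ together with the member sums in all 5 mice, and macrophage and endothelial markers in all but 17C2. The 12 macrophage markers summed to 28.8 to 33.2 CPM in GFP− and 21.5 to 46.0 CPM in GFP+ of the 17C mice, against 336 to 755 CPM and 77.6 to 349 CPM in the 21A mice. GFP+ cells of the 21A mice had 11 of the 12 called lower. For the 17C mice 3 of the 8 tested lay above 0 and 0 were called by edgeR, DESeq2 or limma voom (0 at an unadjusted p under 0.05). Over 5 mice edgeR called 1 of 12 lower (C1qc), with 8 lower at an unadjusted p under 0.05. DESeq2 called 5 lower and limma voom 11. Of all 12115 tested genes the 3 tools called 104, 886 and 1163, in either direction. Ptprc, which encodes the pan-leukocyte surface protein CD45, was at 0 in the GFP− library of 17C2, and Fcer1g in both 17C GFP+ libraries. Fcgr1 and Mrc1 were at 0 in the GFP+ library of 17C1.

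The 10 fibroblast markers summed to 138 to 294 CPM in GFP− and 301 to 342 CPM in GFP+ of the 17C mice, and to 6703 to 12214 CPM and 1800 to 5180 CPM in the 21A mice. Of these, 4 were called higher in GFP+ in the 17C mice and 8 called lower in the 21A mice. The 10 endothelial markers, all with counts in every library, summed to 91.5 to 119 CPM and 75.9 to 113 CPM in the 17C mice and to 463 to 640 CPM and 171 to 410 CPM in the 21A mice. Cardiomyocyte markers went the other way, with 9 of 12 called lower in GFP+ in the 17C mice and 12 of 12 above 0 in the 21A mice, where edgeR called 0 (4 at an unadjusted p under 0.05) and DESeq2 and limma voom called 4 each. The 7 mural (vessel wall) markers summed to 149, 147, 311, 431 and 126 CPM in GFP− and 114, 127, 150, 180 and 147 CPM in GFP+. They went against the member sums in 17C1, 17C2 and 21A7. The 6 dendritic cell markers, at most 10.1 CPM in any library, went with the member sums in each mouse. The 5 neutrophil markers, at most 11.5 CPM, were lower in GFP+ in each mouse. The part of these cell types in the member results was not tested.

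**Figure D4:**
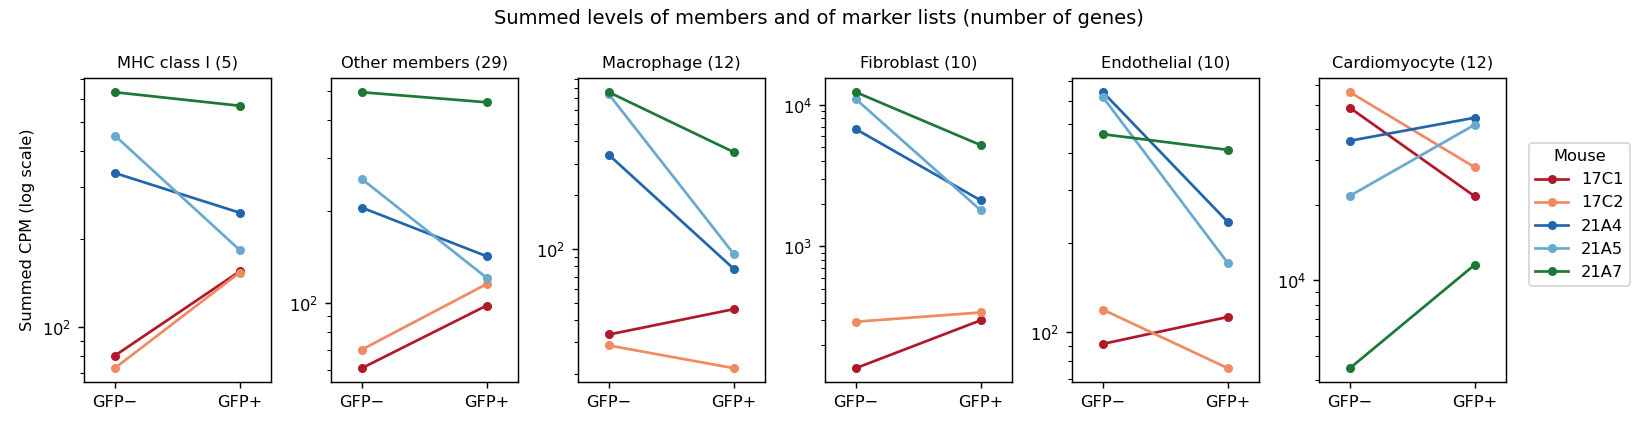
Summed CPM on log axes, 1 panel for each list with its number of genes, in the GFP− and GFP+ library of each mouse, joined by a line (5 mice). The class I and other member sums rise in 17C1 and 17C2 and fall in the 3 21A mice, the fibroblast sums do the same, and the macrophage sums fall in all mice but 17C1.

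Other genes of the pathway, from lists that do not hold the members, were set beside them. Over 5 mice 0 genes of any of the 5 lists were called with edgeR, among 12 signalling genes, 8 of 10 sensing genes, 29 of 30 further interferon-stimulated genes, 16 class I loading genes and 4 of 7 class II genes tested. At an unadjusted p under 0.05, 1 sensing gene and 2 further interferon-stimulated genes passed, all lower, where 15.3% of all tested genes passed in either direction. DESeq2 called 2 in all (Ifi207 and Samhd1) and limma voom 3 (these and Socs3), all lower. The genes with the smallest p in each list were Ifngr1, a chain of the interferon gamma receptor (−0.63 ± 0.29), Dhx58, an RNA sensor that tunes MDA5 (−1.35 ± 0.54), Samhd1, which breaks down nucleotides (−0.90 ± 0.26), Erap1, which trims peptides for class I (−0.48 ± 0.25), and the class II chain H2-Ab1 (−0.68 ± 0.54). These are log2 values with SE, and the edgeR adjusted p ran from 0.168 (Samhd1) to 0.607 (H2-Ab1).

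The same lists were also tested by series. In the 17C mice 5 of 25 tested further interferon-stimulated genes were called higher, where 6.08% of all tested genes were. Among them were Gbp2, a guanylate-binding protein (3.0 ± 0.65; edgeR adjusted p = 0.00269), and Ifitm3, which blocks viral entry (1.81 ± 0.48; edgeR adjusted p = 0.0131). Ube2l6, the conjugating enzyme for ISG15, rose with them (2.31 ± 0.53; edgeR adjusted p = 0.00486), as did Ddx60 and Shisa5. Of 15 tested class I loading genes, the nonclassical class I gene H2-T23 rose (3.34 ± 0.70; edgeR adjusted p = 0.00225) from 0.897 and 0.945 CPM to 10.2 and 8.47 CPM. Psme1, a subunit of the proteasome activator PA28, fell (−1.40 ± 0.28; edgeR adjusted p = 0.00140), from 73.6 and 73.3 CPM to 22.2 and 34.2 CPM. Mavs, the adaptor through which RNA sensors signal, was also called lower (−1.23 ± 0.35; edgeR adjusted p = 0.0215). Of all tested genes 7.52% were called lower.

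In the 21A mice 3 of 12 signalling genes were called lower, where 4.05% of all tested genes were. They were the receptor chains Ifnar1 (−1.06 ± 0.27; edgeR adjusted p = 0.0457) and Ifngr1 (−1.02 ± 0.25; edgeR adjusted p = 0.0433) and the feedback inhibitor Socs3 (−1.12 ± 0.22; edgeR adjusted p = 0.0198). Ifi207 was called lower among 29 further interferon-stimulated genes (−2.26 ± 0.47, edgeR adjusted p = 0.0234). Of these 29, 10 passed an unadjusted p under 0.05 in edgeR, and DESeq2 and limma voom called 5 each, all lower. From the sensing, class I loading and class II lists edgeR called 0 genes. Of the 9, 16 and 7 genes tested in these 3 lists, 3, 2 and 4 passed an unadjusted p under 0.05, all lower. Of all tested genes 24.2% did, in either direction. DESeq2 called 2, 1 and 2 of the lists and limma voom 0, 1 and 1, where they called 1927 and 1789 of all 13221 tested genes. The series difference passed for 6 of 29 further interferon-stimulated genes (Ifi204, Ube2l6, Gbp2, Ifitm3, Shisa5 and Phf11d), for the class I loading genes Psmb8, H2-Q4 and H2-T23, and for the class II genes H2-Aa and H2-Eb1, each more positive in the 17C mice. Socs3 also differed in that direction, and Psme1, Mavs and Ifngr2 in the opposite one. Of all tested genes 7.62% passed for the series difference, in either direction.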

How the data were processed

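RNA of 10 libraries from 5 mice was made into cDNA with SMARTer chemistry and into libraries with Nextera XT, per the labels' protocols. The authors deposited unnormalized counts, a whole number of reads for each gene. FeatureCounts, Subread 2.0.1, STAR 2.7.9a and fastp 0.23.1 are named in the submitters' processing notes, with build GRCm39. How multi-mapping reads, strand and the annotation were handled is not given in the sources used here, so counts of near-identical and overlapping genes are uncertain.

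Groups and mouse identifiers came from the labels, and 0 pairs of libraries were identical. Counts were tested on all genes with edgeR 4.0.16 in R 4.3.3 (filterByExpr, TMM factors, quasi-likelihood F-test, two-sided, Benjamini-Hochberg adjusted p under 0.05), with the mouse as a block. For the standard error, each fitted log2 change was divided by the root of its F statistic. The 2 libraries of a mouse are pairs by their animal identifier. As a check, deviations from the group means correlated across genes with r = 0.292, 0.397, 0.161, 0.0741 and 0.637. Without the replicate block 10 genes and 0 members passed over the 5 mice. DESeq2 1.42.0, limma 3.58.1, other scalings and filters, and leaving out mice were alternatives. Scaling to cardiomyocyte markers, the alternatives within each series, and those of the series difference other than DESeq2 and the 5 CPM filter, were chosen after seeing the data.

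Named in full were, in each role, members past the threshold, the 2 of highest mean CPM and the 1 of smallest p. In each pathway list these were the genes past the threshold and the 1 of smallest p. The members and lists were chosen with earlier results of these data known. The older symbol of Rigi was not matched. The fits were tested on simulated data with known changes.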

Additional observations from a re-analysis of the deposited data

Results flagged for a closer look

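In 5 libraries of a group, 1 library stood far from the other 4 for several named members, by Dixon's gap test, which flags about 1 in 20 groups by chance. The share of all tested genes flagged this way was not counted, so the flags cannot be called particular to the members. In every flagged group it was a library of mouse 21A7 and stood high. These levels rest on the TMM factors, which for 21A7 were 0.241 in GFP+ and 3.31 in GFP−, the extremes of the 10 libraries. Whether the same libraries stand out under another scaling was not tested. Among GFP+ libraries these were Irf7 (49.6 CPM), Zbp1 (16.9 CPM), Isg15 (16.1 CPM), Oasl2 (50.2 CPM), Lgals3bp (87.0 CPM), Parp14 (23.7 CPM), Ifit3 (17.6 CPM) and H2-D1 (211 CPM). Among GFP− libraries these were Cxcl10 (5.15 CPM), Zbp1 (15.6 CPM) and Usp18 (8.60 CPM). The same mouse had the lowest and the highest mitochondrial share of the 10 libraries (9.20% in GFP−, 91.2% in GFP+).

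The GFP difference itself differed between the mouse series for 7 members, by the tested term of 21A minus 17C in edgeR. The log2 values were −4.16 for Ifi27l2a, −3.36 for Bst2, −2.97 for Ifit3, −2.67 for Oasl2, −1.83 for H2-D1, −1.67 for H2-K1 and −9.75 for Cxcl10, the last of which rests on counts of 0 and has no stable size.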

How the results depend on the processing

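The absence of called members over the 5 mice held in 11 of the alternatives, and DESeq2, limma voom and no filter on low counts each called 1 (Parp14). Calls over all genes moved more: 10 with no replicate block, 886 with DESeq2, 1163 with limma voom, 33 by library size alone, 818 with no filter, 0 scaled to cardiomyocyte markers, 0 to 173 leaving out a mouse, 1510 in the 17C mice (4 members) and 889 in the 21A mice (1 member). Library size alone moved the median of all genes to −1.15 and that of the members to −1.20, and the 17C mice alone gave 0.98. Members higher within 17C numbered 2 with no replicate block, where 1059 of all genes were called in either direction, and 7 without mitochondrial genes (1828). They numbered 18 scaled to cardiomyocyte markers (5121 of 11107), which also moved the median of all genes to 1.40. Members lower within 21A numbered 0 with no replicate block (0 of all genes called in either direction) or library size alone (320). They numbered 3 with DESeq2 (1927) or limma voom (1789), 4 with no filter (1862 of 25022) and 2 above 5 CPM (603 of 5232). Scaled to cardiomyocyte markers there were 15 (2476 of 13221, with the median of all genes at −0.79), and leaving out a mouse 0 to 9 (57 to 2150). The series difference held 0 members with no replicate block (0 of all genes), 12 with DESeq2 (1925) or no filter (1733), 25 scaled to cardiomyocyte markers (5692 of 12115) and 0 to 7 leaving out a mouse; limma voom was not run for it, and the 17C fit cannot lose a mouse. The cause was not tested.

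Single members, none of which passed over the 5 mice, changed sign. With no replicate block the log2 values were −0.044 (Cxcl10), 0.016 (Irf7), −0.15 (B2m) and −0.11 (H2-K1). With limma voom they were −0.60 (Cxcl10), −0.43 (Isg15), 0.12 (Igtp) and −0.0028 (B2m). By library size alone, which moved all genes, they were −0.49 (Cxcl10), −1.36 (Isg15), −0.81 (Usp18), −0.30 (Oasl2), −0.59 (Ifi47), −1.09 (B2m) and −0.97 (H2-K1), all but Isg15 above the shifted median of all genes. In the 17C mice alone they were 0.64 (Irf7), 0.72 (Ifih1), 0.60 (Ifit2), 0.33 (Lgals3bp) and 0.94 (H2-D1), and in the 21A mice alone −1.06 (Cxcl10), −1.14 (Isg15), −0.10 (Oasl2), 0.27 (Igtp), −0.45 (B2m) and −0.45 (H2-K1). Leaving out 1 mouse, the ranges were −0.25 to 1.73 (Cxcl10), −0.42 to 0.15 (Irf7), −0.56 to 0.033 (Ifih1), −0.80 to 0.18 (Zbp1), −0.42 to 0.83 (Isg15), −0.19 to 0.94 (Usp18), −0.34 to 0.12 (Igtp), −0.47 to 0.16 (H2-D1), −0.17 to 0.36 (B2m) and −0.11 to 0.48 (H2-K1).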
